A study of Arabidopsis with 2 samples.

Results

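The 31 genes described here are those whose array annotation names a 30S or 50S ribosomal protein, the subunit sizes of bacteria and of the organelles derived from them. They were found among 21500 gene probes, 1 per gene, and comprised 9 proteins of the 30S and 22 of the 50S subunit. All 31 are encoded in the nucleus, and the array carried 0 probes for genes of the chloroplast or mitochondrial genome. Of these genes, 17 belong to a list of plastid ribosomal proteins. The other 14 lie outside that list. The annotation and the gene table used here do not give the organelle for most of these 14, and NFD3 (AT1G31817) is known as a mitochondrial S11. The array annotation does name the chloroplast for AT1G52370 (L22), and describes AT5G23535 as similar to a chloroplast precursor of L24.

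Plastids keep a ribosome of bacterial type, assembled from some proteins made in the plastid and others that are imported from the cytosol. It translates the plastid genome's own messages, among them core proteins of the photosystems. In Arabidopsis, loss of many plastid ribosomal proteins arrests the embryo, and several of the genes carry the name embryo defective (emb) for this reason. Mitochondria have a separate set of ribosomal proteins, also of bacterial type.

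The comparison was of torpedo stage embryos of wild type Ler with those of the double mutant cuc1 cuc2, which lacks the activity of the redundant NAC transcription factors CUC1 and CUC2. Such seedlings have fused cotyledons and no shoot meristem. The wild type embryos came from Ler plants and the mutant embryos from parents of genotype cuc1-1 cuc2-1/+, all grown on soil in continuous light with no treatment. About 100 embryos were pooled in each sample, and 1 RNA extract per genotype was hybridized 2 times with the dyes exchanged. The hybridizations are called here by the dye of cuc1 cuc2, as the Cy5 and the Cy3 hybridization. Their difference measures technical error only, so no test across embryo samples could be made, and a lower share of a cell type and less RNA per cell cannot be told apart.

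All ratios are log2 of cuc1 cuc2 over Ler, relative to a median gene probe at 0 in each hybridization. CUC2 had ratios of -0.62 and -0.999 and CUC1 of 0.021 and -0.11 in the Cy5 and Cy3 hybridization. The scanner software's error of a single ratio was about 0.16 for bright probes. A gene was called changed when its deposited p-value, which comes from the error model of a single array, was under 0.01 in both hybridizations with the same sign. Of all gene probes, 0.502% were called higher and 0.242% lower. No called gene had a mean ratio smaller than 0.44 in size, and the furthest of the 31 genes lay at -0.27, so shifts of the size seen below were not detectable by this rule.

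The genes for 30S and 50S ribosomal proteins did not shift as a block. None of the 31 was called in either direction. The smallest p-value of any of them in a single hybridization was 0.047. None of the 31 had a p-value under 0.05 in both, and only 1.58% of all gene probes did with the same sign, so a count of 0 is near that share. The median of their mean log2 ratios was -0.047, with a range from -0.27 to 0.23, against -0.00059 over all gene probes. In both hybridizations 7 genes were on the higher side and 13 on the lower side, which is 22.6% and 41.9% of them, against 23.1% and 22.9% of all gene probes. The 11 remaining genes had opposite signs. The medians of the 17 plastid genes and of the other 14 were 0.077 and -0.12, and every gene on the higher side both times was a plastid gene.

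**Figure D1:**
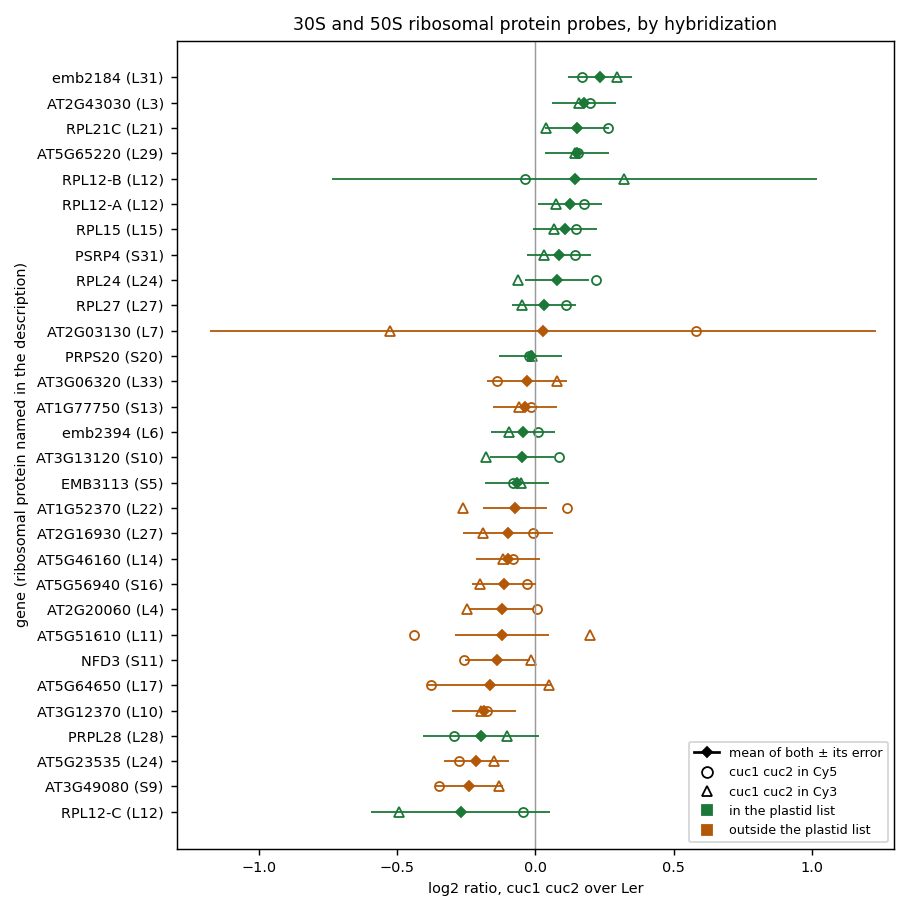
Log2 ratio of cuc1 cuc2 over Ler (x axis) for 30 of the 31 genes (y axis, ordered by mean), with an open circle for the Cy5 and an open triangle for the Cy3 hybridization, and a filled diamond for the mean with the scanner software's error as a bar. The plastid genes (green) range from -0.27 to 0.23 and the genes outside the plastid list (brown) from -0.24 to 0.028 in their means.

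Among the plastid genes of the 50S subunit, the highest ratio belonged to emb2184 (AT1G75350), which encodes L31. In bacteria this protein lies at the bridge between the subunits. In the Cy5 hybridization its signal after dye normalization was 28689 for cuc1 cuc2 against 25505 for Ler, and in the Cy3 hybridization 31033 against 25276. The cuc1 cuc2 values lay above both Ler values, and the log2 ratios were 0.17 and 0.30, with a mean of 0.23 (error 0.12). The deposited p-values of emb2184, from the error model of a single array, were 0.30 and 0.072. It was the only one of the 31 genes whose mean exceeded 2 errors, by a narrow margin. Of all 21500 gene probes, 1300 exceeded that limit, and 91.1% had a lower mean than emb2184.

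L3, encoded by AT2G43030, binds near the peptidyl transferase centre in bacteria. Its signal was 83621 for cuc1 cuc2 against 72923 for Ler in the Cy5 hybridization and 83473 and 74900 in the Cy3 hybridization. The cuc1 cuc2 signals lay above the Ler signals, and the mean log2 ratio was 0.18 (error 0.12). AT5G65220, which encodes L29, a protein at the exit of the peptide tunnel, gave signals of 29767 and 26725, then 30070 and 27238. The ratios of 0.16 and 0.14 were nearly equal and their mean was 0.15 (error 0.12).

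RPL21C (AT1G35680), which encodes L21, was less even. Its signals in cuc1 cuc2 and Ler were 91247 and 76047 in the Cy5 hybridization but 88998 and 86756 in the Cy3 hybridization, so the ratio was 0.26 in the former and 0.037 in the latter. RPL15 (AT3G25920), which encodes L15, a late assembly protein in bacteria, had ratios of 0.15 and 0.068. Like the preceding genes, it was on the higher side both times.

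RPL24 (AT5G54600), RPL27 (AT5G40950) and emb2394 (AT1G05190) each changed sign between the hybridizations. L24 starts the assembly of the large subunit in bacteria, and its gene had ratios of 0.22 and -0.063. L27 reaches the peptidyl transferase centre, and its gene had ratios of 0.11 and -0.049. L6, encoded by emb2394, had 0.0083 and -0.096. PRPL28 (AT2G33450), which encodes L28, was on the lower side both times. Its dim signals were 451 in cuc1 cuc2 and 553 in Ler in the Cy5 hybridization and 564 and 606 in the Cy3 hybridization, with a mean log2 ratio of -0.20 (error 0.21).

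L12 forms the flexible stalk of the large subunit, which draws translation factors to the ribosome. Arabidopsis has 3 genes for the plastid L12 side by side on chromosome 3, and their probes gave different readings. RPL12-A (AT3G27830) was bright, with signals of 67088 in cuc1 cuc2 and 59403 in Ler in the Cy5 hybridization and 59755 and 56742 in the Cy3 hybridization. Its ratios were 0.18 and 0.075. RPL12-C (AT3G27850) was dim, at 278 and 287, then 312 and 440. Its ratios of -0.046 and -0.49 averaged -0.27 (error 0.32), the lowest mean of the 31 genes and above only 4.74% of gene probes. RPL12-B (AT3G27840) was dimmer still, at 110 and 113, then 104 and 83.6, and its mean of 0.14 had an error of 0.88. The means of the dim L12 probes thus lay within their errors. Whether probes of these similar genes share transcripts was not tested.

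The 5 plastid genes of the 30S subunit stayed closer to 0, with means from -0.067 to 0.086 and none beyond its error. PSRP4 (AT2G38140), annotated as S31, was the only one on the higher side both times. Its signals were 14637 in cuc1 cuc2 and 13258 in Ler in the Cy5 hybridization and 20843 and 20414 in the Cy3 hybridization, which gave ratios of 0.14 and 0.030. PRPS20 (AT3G15190) and EMB3113 (AT2G33800) were on the lower side both times, by 0.080 at most. They encode S20, which binds early to the ribosomal RNA in bacteria, and S5, which acts in decoding accuracy there. AT3G13120, which encodes S10, changed sign with ratios of 0.084 and -0.18. The median over the plastid 30S genes was -0.047, whereas that over the 12 plastid 50S genes was 0.12, from 0.15 in the Cy5 and 0.052 in the Cy3 hybridization.

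Over all 17 plastid genes, 7 (41.2%) were on the higher side both times, 5 (29.4%) on the lower side and 5 had opposite signs. The direction of their median depended on the hybridization: it was 0.11 in the Cy5 and -0.014 in the Cy3 hybridization. Under the other background corrections with loess it was at most 0.033. The middle gene by rank was then RPL27 in place of RPL24. The mean of the dim RPL12-B was at most 0.010 under these processings, while that of RPL24 was 0.079 to 0.080. With background estimated by a convolution model (normexp) and each array centred on its median, 1 of the 17 was on the higher side both times and 2 on the lower side, so the order of the counts turned. That processing left 11.2% of all gene probes on either side both times. The 14 plastid probes with a mean signal above 1000 had a median of 0.082, from 0.15 in the Cy5 and 0.0082 in the Cy3 hybridization. The 3 dimmer ones were RPL12-B, with a mean of 0.14, and RPL12-C and PRPL28, with means of -0.27 and -0.20. Bright probes kept their sign more often in general, since 35.1% of the 2749 gene probes brighter than 5000 were on the higher side both times and 34.4% on the lower side.

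The 14 genes outside the plastid list lay on the lower side. Of these, 13 had a mean below 0, 8 (57.1%) were on the lower side in both hybridizations and none was on the higher side in both, against 22.9% and 23.1% of all gene probes and 34.4% and 35.1% of those brighter than 5000. Their median was -0.11 in the Cy5 and -0.14 in the Cy3 hybridization. With normexp and median centring, 2 of the 14 were on the lower side both times and 0 on the higher side, and 2 of 14 (14.3%) is near the 11.2% of all gene probes.

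The lowest of them was AT3G49080, which encodes an S9-like protein; in bacteria S9 reaches the site of the peptidyl transfer RNA. Its signals were 2258 in cuc1 cuc2 and 2876 in Ler in the Cy5 hybridization and 2764 and 3026 in the Cy3 hybridization. The ratios of -0.35 and -0.13 averaged -0.24 (error 0.12), and the p-values were 0.047 and 0.435. AT5G23535, described as similar to a chloroplast precursor of L24, gave 4326 and 5247, then 4759 and 5278. Its mean log2 ratio was -0.21 (error 0.12). In both genes the cuc1 cuc2 signal was below the Ler signal of the same hybridization by an amount that varied with the dye.

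AT3G12370, which encodes L10, the base of the stalk, was the most even. Its signals were 8490 in cuc1 cuc2 and 9591 in Ler in the Cy5 hybridization and 9586 and 10979 in the Cy3 hybridization, and the ratios were -0.18 and -0.20. NFD3, named for a nuclear fusion defect of the female gametophyte, gave 5318 and 6371, then 5666 and 5728. Its ratio of -0.26 in the Cy5 hybridization was thus close to 0, at -0.016, in the other.

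The S16 gene AT5G56940, the S13 gene AT1G77750, the L27 gene AT2G16930 and the L14 gene AT5G46160 were also on the lower side both times, with means from -0.12 to -0.038. With AT3G49080 and NFD3, this places all 4 genes for 30S proteins outside the plastid list on the lower side in both hybridizations.

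The 6 genes with opposite signs included the L11 gene AT5G51610, with ratios of -0.44 and 0.20, and the L17 gene AT5G64650, with -0.38 and 0.047. AT2G20060 (L4) had 0.0047 and -0.25, AT1G52370 (L22) had 0.11 and -0.26, and AT3G06320 (L33) had -0.14 and 0.079. The widest difference was that of AT2G03130, annotated as L7/L12, at 0.58 and -0.53. This probe was well above background only in the Cy5 channel of each array, with signals of 91.8 in cuc1 cuc2 and 61.3 in Ler, then 64.5 and 93.0. It was the only one of the 31 not well above background in all 4 channels, and its sign followed the dye.

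Several of the 14 genes have a namesake, a protein of the same number, in the full list of plastid ribosomal proteins. There were 8 such pairs with 1 gene on each side, chosen after the values were seen. Of the plastid genes in these pairs, only RPL24 and RPL27 are among the 31. The others were missed by the annotation search and are described below. The plastid gene had the higher mean ratio in the 8 pairs and the higher ratio in both hybridizations in 6. For L17, the plastid gene AT3G54210 had a mean of 0.22 and AT5G64650 one of -0.16. The probe of AT5G64650 was dim, with a mean signal of 483, and its mean lay within its error of 0.22. The same held for AT5G51610 (L11, signal 741, error 0.17) and AT2G16930 (L27, signal 776, error 0.16). The mean of AT1G77750 (S13) was also within its error, and those of AT3G12370, AT5G23535, AT2G20060 and AT3G49080 were beyond theirs. For L24 the means were 0.077 for RPL24 and -0.21 for AT5G23535, and for L10 they were 0.069 for EMB3136 and -0.19 for AT3G12370. AT5G23535 itself is described as similar to a chloroplast precursor. The smallest differences were those of L11 and S13, at 0.077 and 0.079, and the order of the L11 pair turned in the Cy3 hybridization, where the difference was -0.26. The L4 pair was the other exception, with a difference of -0.022 in the Cy5 hybridization. L12, with 3 plastid genes, was not paired: against AT2G03130 (L7/L12), whose mean was 0.028, RPL12-A and RPL12-B had higher means and RPL12-C a lower one.

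**Figure D2:**
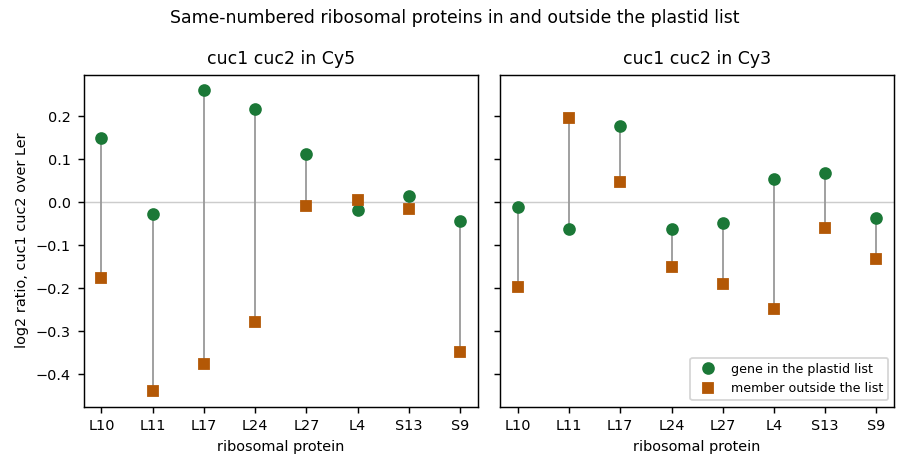
Log2 ratio of cuc1 cuc2 over Ler (y axis) for the 8 ribosomal proteins (x axis) with a gene in the plastid list (circle) and a namesake outside it (square), with the Cy5 hybridization on the left and the Cy3 hybridization on the right. The plastid gene lies higher in both panels for 6 of these proteins, and the order turns for L4 on the left and for L11 on the right.

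The annotation search missed plastid ribosomal proteins that are described in other words. Of the 41 genes in the list, 40 had a probe, and 23 of these were not among the 31. All 23 passed the scanner's background criterion in every channel, and none was called. Their median log2 ratio was 0.046, with 8 on the higher side both times, 3 on the lower side and 12 with opposite signs. The median was 0.080 in the Cy5 but 0.0021 in the Cy3 hybridization, and the count of 8 (34.8%) is near the 35.1% of gene probes brighter than 5000.

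PRPL35, which encodes L35, had the highest ratio of all 40. Its signals were 64723 in cuc1 cuc2 and 47664 in Ler in the Cy5 hybridization and 60068 and 51263 in the Cy3 hybridization. The ratios were 0.44 and 0.23, and only the first had a p-value under 0.01, at 0.0080 against 0.163. AT3G54210 (L17) followed with 0.26 and 0.18, then PSRP3/1, a protein specific to the small subunit of plastid and cyanobacterial ribosomes, with 0.26 and 0.067. EMB3105 (L18) had 0.27 and -0.014. At the other end lay emb1473 (L13), with -0.16 and -0.11, PSRP6 with -0.25 and 0.022, and EMB3126 (L1) with -0.23 and 0.043.

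The other 16 genes had means between -0.052 and 0.11. PSRP2, PSRP5, RPL9, GHS1 (S21), EMB3137 (S13) and the genes AT4G17560 and AT5G47190, both for L19, were above 0. So were AT5G24490 (PSRP1), EMB3136 (L10), AT4G01310 (L5), AT1G64510 (S6) and RPL4. PSRP3/2, RPS9, PRPL11 and AT1G29070 (L34) were below 0, by at most 0.052.

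With these genes included, 15 of 40 plastid ribosomal protein genes (37.5%) were on the higher side both times and 8 on the lower side. The first share lies above the 23.1% of all gene probes but near the 35.1% of those brighter than 5000, and the median brightness of the 40 was 19295. With normexp and median centring, 1 was on the higher and 3 on the lower side both times, so the order turned. The median of their means was 0.047, with 0.087 in the Cy5 and -0.0046 in the Cy3 hybridization. The 27 genes of the large subunit had a median of 0.065, with 0.14 in the Cy5 and 0.022 in the Cy3 hybridization. The 13 of the small subunit had 0.027, with 0.080 and -0.014, so their sign turned. The 9 genes named embryo defective had a median of 0.018, with 0.0083 and -0.011, and the other 31 had 0.056, with 0.096 and 0.0021. None of these 40 genes was called.

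Plastid translation also needs initiation, elongation and release factors. All 12 genes of a list of such factors had probes well above background in all 4 channels. Their median was 0.080, with 0.066 in the Cy5 and 0.10 in the Cy3 hybridization. On the higher side both times were 8 (66.7%), against 23.1% of all gene probes and 35.1% of those brighter than 5000. The median brightness of the 12 was 5251. With normexp and median centring the median was 0.082, but 0 of the 12 were on either side both times, against 11.2% of all gene probes. The highest was AT4G11175, a gene for initiation factor IF1, with signals of 3769 in cuc1 cuc2 and 2930 in Ler in the Cy5 hybridization and 2913 and 2759 in the Cy3 hybridization. APG3, a peptide chain release factor, had even ratios of 0.20 and 0.21. FUG1 (initiation factor IF2), RABE1b (elongation factor EF-Tu) and SCO1 (elongation factor EF-G) had means of 0.090, 0.086 and 0.081. RRF, the ribosome recycling factor, was the lowest with -0.12 and -0.051, and 0 of the 12 were called.

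Of 21 genes for plastid transcription and its regulators, 20 had a probe, with a median of 0.048, and 0 were called. The median was 0.058 in the Cy5 and 0.0037 in the Cy3 hybridization, and under the other processings it was as low as 0.0055, over the probes well above background. The highest was GLK2, a transcription factor for chloroplast development, with signals of 1151 in cuc1 cuc2 and 668 in Ler in the Cy5 hybridization and 1008 and 839 in the Cy3 hybridization. Its ratios were 0.79 and 0.26. PTAC3, a component of the plastid transcription complex, was the lowest, with -0.33 and -0.16.

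Set beside other genes of translation and of the plastid, the plastid ribosomal proteins lay between them. The 128 genes described as 40S or 60S ribosomal proteins, called cytosolic here, had a median of -0.13. In both hybridizations 89 (69.5%) were on the lower side and 10 (7.81%) on the higher side. These shares were 22.9% and 23.1% over all gene probes and 34.4% and 35.1% over those brighter than 5000. The list was formed by description only, and it includes RPS19 (AT5G47320), which is described as a mitochondrial precursor. The 14 genes outside the plastid list, with a median of -0.12, had 8 on the lower side both times. The 45 photosystem genes had a median of 0.28, with 40 (88.9%) on the higher side both times. With normexp and median centring, 28 of the cytosolic genes (21.9%) were on the lower side both times. Under that processing 22 of the photosystem genes (48.9%) were on the higher side both times, against 11.2% of all gene probes on each side. Of the 45 photosystem genes, 3 were called higher, whereas 0.502% of all gene probes were. These 3 were CAB2, a light-harvesting protein, NPQ4, which acts in photoprotection, and PSAN, a photosystem I subunit, with means of 1.02, 0.62 and 0.51. These values are side by side descriptions, and the differences between the lists were not tested.

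**Figure D3:**
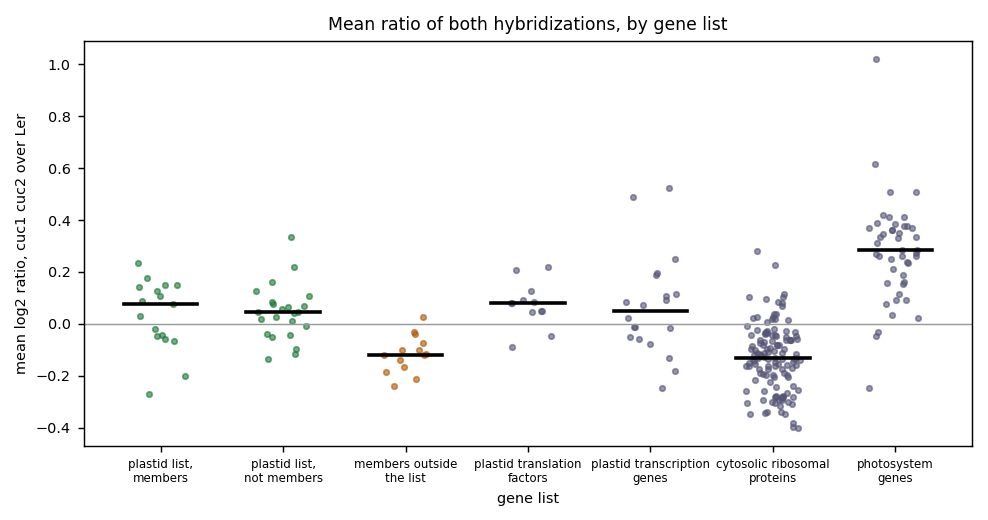
Mean ratio (log2 of cuc1 cuc2 over Ler) for the genes of each list, with a point per gene and a bar at the median; members are the genes among the 31. The medians run from -0.13 for cytosolic ribosomal proteins through 0.077 for plastid genes among the 31 to 0.28 for photosystem genes.

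Markers of the tissues in a seed gave the following values. All 6 embryo markers exceeded background clearly by the scanner's criterion in every channel. Their summed signals were 48029 and 51275 in cuc1 cuc2 and 49266 and 49489 in Ler. Of 10 endosperm markers, 5 met it in every channel, and MEA, FWA, PHE1 and IKU2 in none, with FIS2 in 3 of the 4. Their summed signals were 2341 and 2176 in cuc1 cuc2 and 2332 and 1939 in Ler. Of 8 seed coat markers, 6 met it in every channel and TT12 and BAN in none, with sums of 3508 and 3128 in cuc1 cuc2 and 3706 and 3155 in Ler. None of these markers was called, and their part in the ratios above was not tested.

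**Figure D4:**
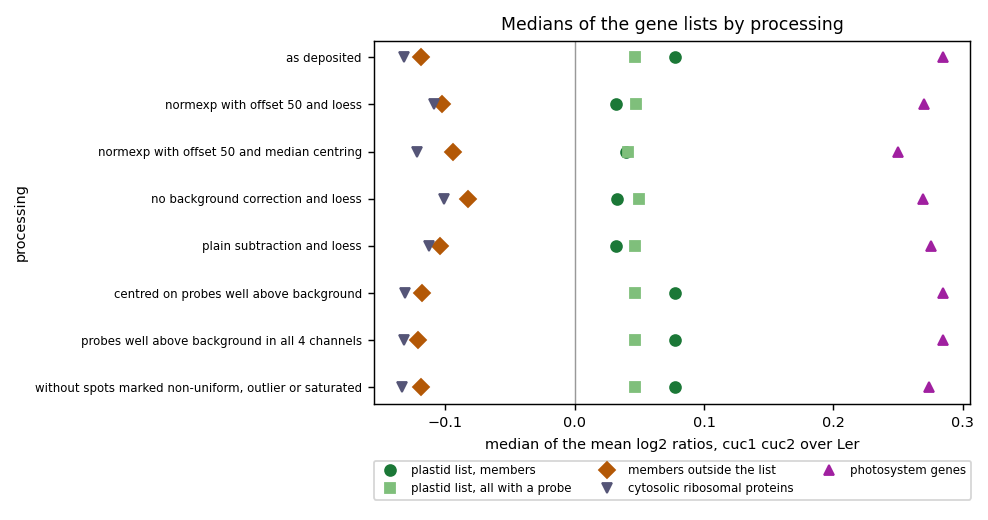
Median of the mean ratios (x axis, log2 of cuc1 cuc2 over Ler) of the plastid genes, the genes outside the plastid list and comparison lists under the deposited and 7 other processings of the arrays (y axis), with a symbol per list. Between the other processings the plastid genes among the 31 range from 0.032 to 0.078, and those outside the list stay below 0, from -0.12 to -0.083.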

How the data were processed

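Each array compared both genotypes on the same spots. Per the file headers, the authors used Agilent Feature Extraction 7.5.1, which subtracted background and normalized the dyes. The deposited values used were the log10 ratio of red over green, its error, its p-value and the dye-normalized intensity of each channel. Control spots were left out of 22575 spots, and 21500 gene probes remained. The genome build and annotation of the array are not given in the sources used here, so no coordinates are printed. Names came from the RefSeq table of assembly TAIR10.1, which matched 21191 gene probes and all 31 genes. The series' deposited log10 values equalled the scanner ratios, turned to cuc1 cuc2 over Ler, to within 1.66e-09 in log2 units.

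By the dye labels, each log10 ratio was re-expressed as cuc1 cuc2 over Ler in log2 units, and both hybridizations, as 1 replicate, were averaged. Errors were combined in quadrature. Across all gene probes the hybridizations correlated at -0.441, and at -0.0198 over the probes well above background in all 4 channels. Over the probes brighter than 5000 they correlated at 0.683. Over the 31 genes they correlated at -0.14, and over all 40 plastid ribosomal proteins with a probe at 0.324. Genes are not independent replicates. The genes and lists were chosen with earlier results of these data known. Genes were named for being called, for the 10 highest and the 10 lowest means among probes well above background in all 4 channels, for the widest difference between hybridizations, for the ends of the factor lists, and as plastid ribosomal proteins that the search missed; others were named to describe the rest. The values of 1 gene are not reported here, though it is counted in all summaries. A set of mitochondrial genes could not be formed, since the gene table names 0 of the 31 so, and the genes outside the plastid list took its place after the data were seen.

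Alternatives used limma 3.58.1 in R 4.3.3. Normexp background correction with offset 50 was followed by loess or by median centring. No background correction and plain background subtraction were each followed by loess. Other p-value limits, adjusted p-values, a limit of 0.5 on the log2 ratio and a filter on dim probes were also tried. The scripts, in Python 3.11.15, were tested on simulated data.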

Additional observations from a re-analysis of the deposited data

How the results depend on the processing

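None of the 31 genes was called in either direction under any p-value limit, fold limit, filter or single hybridization tried. In single hybridizations, where a sign needs to hold only once, 11 to 14 genes were on the higher side and 17 to 20 on the lower side. In both, the counts were 7 and 13. Of all 21500 gene probes, 10698 were on the higher side in the Cy5 and 10134 in the Cy3 hybridization. The medians from single hybridizations were -0.054 to -0.016 for all 31 genes and -0.014 to 0.11 for the plastid genes, which turned to -0.014 in the Cy3 hybridization alone. They were -0.14 to -0.11 for the genes outside the plastid list, -0.0046 to 0.087 for all 40 plastid ribosomal proteins and 0.066 to 0.10 for the translation factors. The plastid median less that of the other genes was 0.20, and 0.13 to 0.22 in single hybridizations. Normexp with median centring left 1 of the 31 genes (3.23%) on the higher and 4 (12.9%) on the lower side both times. This processing left 11.2% of all gene probes on each side. It gave a median of -0.094 for the genes outside the plastid list. With no background correction and loess that median was -0.083 and the difference of medians 0.12. With the plastid genes that the search misses added, the median over the resulting 54 genes was 0.00080, against -0.047 for the 31. The causes of these changes were not tested. Of 21 genes among the 31 that were followed singly under 5 other processings, 19 kept the sign of their mean, and the dim RPL12-B and AT2G03130 turned to -0.043 and -0.028 with normexp and median centring. A median of mitochondrial genes was not run. No paired analysis was possible because each genotype had 1 extract.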
